A study of Homo sapiens with 6 samples.

Results

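The zinc finger cluster of chromosome 19p12 is a run of KRAB zinc finger genes and pseudogenes that lie side by side on the short arm of chromosome 19. Its members were taken as the genes with a symbol of ZNF and a number, pseudogenes included, whose start lies from ZNF253 to ZNF254. The annotation holds 38 such genes, 31 of which were measured, out of 18417 genes measured in all. The other 7 (ZNF66, ZNF98, ZNF209P, ZNF849P, ZNF723, ZNF728 and ZNF725P) had no probe set of their own, and ZNF98 and ZNF728 were named only on probe sets shared with other genes. Each gene was read at 1 probe set, selected on its highest mean signal over the 6 arrays. The window was drawn with its differences between the cell lines known, so the counts below describe these genes and are no test of them.

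RNA was measured on 6 Affymetrix Gene 1.0 ST arrays, 2 biological replicates for each of 3 cell lines. The study describes the lines as near isogenic, and the copy number of the window in each was not examined here. BJELM cells are BJEL cells that carry a retroviral MYC-ER, a MYC protein fused to an oestrogen receptor domain, and were kept under G-418, hygromycin, puromycin and continuous 4-hydroxytamoxifen, which switches the fusion on. BJEL cells are BJ cells with the catalytic subunit of telomerase (hTERT) and the SV40 early region, under G-418 and hygromycin. BJ cells are primary foreskin fibroblasts with no added gene. The drugs and the introduced genes cannot be told apart, since each went with its line. The limma p-values below rest on the spread between replicate arrays, pooled over the 3 lines and drawn towards that of all genes. They do not measure the spread between separately made lines. Signals are on the log2 scale, so that a difference of 1 is a 2-fold change.

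TERT was at 10.84 and 10.78 on the BJELM arrays, at 10.71 and 10.97 on the BJEL arrays, and at 7.77 and 7.88 on the BJ arrays. MYC was at 9.57 and 8.90 on the BJELM arrays, at 10.22 and 10.12 on the BJEL arrays, and at 9.47 and 9.61 on the BJ arrays. MYC was thus lower on the arrays labelled BJELM than on the BJEL arrays (difference -0.93), which goes against the label, and it is not known here whether its probe set reads the fusion gene. The study also assayed the fusion by other methods, which were not analysed here. BJELM below stands for the arrays labelled BJELM. Of 12 fibroblast markers, 9 were called lower in BJELM than in BJ (4.7% of all genes) and 5 lower in BJEL than in BJ (2.29% of all genes). VIM was at 12.87 or more on every array. None of 6 epithelial, 4 endothelial, 4 leukocyte or 3 melanocyte markers measured was called in any comparison. The epithelial keratin KRT18 was nonetheless at 10.74 or more on every array. It was 0.97 lower in BJEL than in BJ (limma adjusted p = 0.04), just under 2-fold. Fewer cells of a type and less RNA per cell cannot be told apart in such bulk samples.

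KRAB zinc finger proteins bind DNA through arrays of C2H2 fingers and, through the KRAB domain, recruit the corepressor TRIM28 (KAP1). TRIM28 in turn brings in SETDB1, which methylates histone H3 at lysine 9, and HP1 proteins, and the bound DNA is silenced. Many targets are transposable elements. ZNF91 represses SVA elements and ZNF93 represses L1 elements, and ZNF675 is also known as TIZ, an inhibitor of TRAF6 signalling. The targets of most other members are left out here. The cluster arose by repeated duplication in primates, and its genes resemble each other in sequence.

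That resemblance is visible in the promoters, of which RefSeq (GRCh38.p14) gives 1 or more for 25 of the 31 members (not for ZNF738, ZNF253, ZNF676, ZNF729, ZNF826P and ZNF99). A promoter here is the 300 bases from 250 before a gene's start to 50 after it. The promoters of ZNF730, the member with the largest difference between BJEL and BJ, and of ZNF737, the member called lower in BJELM than in BJ, are shown whole, with every copy of the octamer TCCAATCA in capitals.
ZNF730 promoter (chr19:23116775-23117074, + strand): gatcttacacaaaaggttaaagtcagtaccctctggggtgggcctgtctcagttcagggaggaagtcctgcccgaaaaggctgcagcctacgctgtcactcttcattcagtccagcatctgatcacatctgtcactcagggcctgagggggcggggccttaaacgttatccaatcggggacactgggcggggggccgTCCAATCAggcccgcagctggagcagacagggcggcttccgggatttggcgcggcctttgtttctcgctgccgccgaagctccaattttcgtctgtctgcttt
ZNF737 promoter (chr19:20565732-20566031, - strand): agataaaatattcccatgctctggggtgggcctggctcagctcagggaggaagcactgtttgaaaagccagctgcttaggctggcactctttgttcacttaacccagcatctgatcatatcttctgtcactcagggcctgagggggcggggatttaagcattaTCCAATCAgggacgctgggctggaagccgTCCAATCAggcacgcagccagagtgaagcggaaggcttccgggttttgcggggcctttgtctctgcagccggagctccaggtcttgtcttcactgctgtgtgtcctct

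The octamer was picked after a scan of the members' own promoters for words of 7 lengths, 36859 different words in all, of which 7 were followed up, so that its presence in all of them is a description and no test. It was 1 of 2 words of 8 bases found in all 25 genes, and the most widely shared word of 10 bases was in 23 of them. The octamer lay on the gene's own strand in all 25 genes, once in 10 and at 2 places in 15, and the second promoter listed for ZNF682 had none. The 2 copies started 29 bases apart in 13 genes and 28 apart in 2. The copy nearer the start began 50 to 60 bases before it in 21 of 25 genes. The same octamer, sought on both strands, was in 12.9% of the promoters of other numbered ZNF genes of chromosome 19, in 8.52% of those of ZNF genes elsewhere and in 1.9% of all 27305 genes of the table. The bases around the nearer copy, 50 before it and 12 after it, are shown for members that the comparisons below turn on.
ZNF93 (chr19:19900839-19900908, + strand): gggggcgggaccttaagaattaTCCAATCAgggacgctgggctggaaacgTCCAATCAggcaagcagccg
ZNF675 (chr19:23687217-23687286, - strand): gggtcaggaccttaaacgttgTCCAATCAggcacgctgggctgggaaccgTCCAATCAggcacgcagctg
ZNF724 (chr19:23250428-23250497, - strand): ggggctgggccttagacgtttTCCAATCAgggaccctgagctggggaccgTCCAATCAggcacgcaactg
ZNF100 (chr19:21767612-21767681, - strand): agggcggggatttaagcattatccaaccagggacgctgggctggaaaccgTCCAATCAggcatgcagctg
ZNF91 (chr19:23395511-23395580, - strand): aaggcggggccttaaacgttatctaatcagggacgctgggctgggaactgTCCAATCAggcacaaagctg
ZNF43 (chr19:21836222-21836291, - strand): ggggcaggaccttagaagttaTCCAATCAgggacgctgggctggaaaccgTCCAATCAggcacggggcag
ZNF626 (chr19:20661610-20661679, - strand): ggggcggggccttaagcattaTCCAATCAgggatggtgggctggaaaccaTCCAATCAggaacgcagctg
ZNF429 (chr19:21505522-21505591, + strand): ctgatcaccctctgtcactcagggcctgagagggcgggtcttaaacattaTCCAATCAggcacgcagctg

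**Figure D1:**
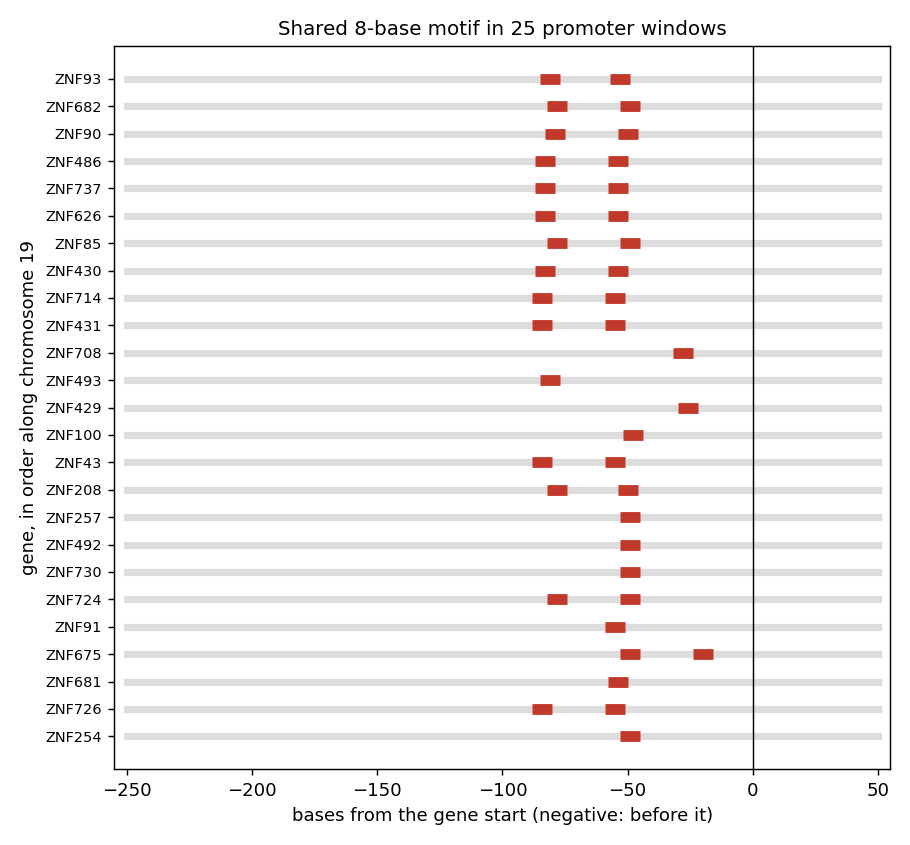
Place of the shared 8-base motif (red) in the promoter window of 25 members, in order along chromosome 19. The horizontal axis gives bases from the gene start, and the grey bar is the window searched. In 15 genes 2 copies are seen, and in 21 genes the copy nearer the start begins 50 to 60 bases before it.

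Another 13 motifs were sought on both strands. CCAAT, which the octamer contains, was in all 25 promoters, against 39.7% of all genes and 48.8% of other numbered ZNF genes of chromosome 19. With shares in that same order, GGGCGG, the SP1 motif, was in 19 of 25 (48.3% and 73.5%) and the E2F-type motif TTTGGCGC in 4 (0.795% and 2.35%). CGCG was in 5 (52.8% and 83.5%), TATAAA in 3 (14% and 1.76%) and TTCNNNGAA in 1 (9.38% and 20%). The other 7 were in none: CACGTG, the E-box that MYC binds (8.77% of all genes), TTTCGCGC (0.63%), CCGGAAGT (4.95%), GCGCATGC (3.68%), TGACTCA (6.05%), AAGATGGCG (2.14%) and the interferon-stimulated response element (4.38%). Of these, CCGGAAGT was in 22.9% of the other ZNF genes of chromosome 19, and the rest were in 1.18% to 5.88% of them. Such a match or its lack says only whether these letters are in this window. The promoters held a median of 10 CpG pairs, against 22 in other ZNF genes of chromosome 19 and 16 over all genes. Aligned in pairs, they were identical at a median of 77.2% of positions (300 pairs), against 50.4% for other ZNF genes of chromosome 19. The most alike were those of ZNF714 and ZNF431 (91.0%).

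In BJEL cells 16 of the 31 genes were called higher than in BJ cells and none lower. Calls needed an adjusted p under 0.05 in the limma fit over all genes and a change of at least 2-fold, which 2.89% of all genes met as higher. At an unadjusted p under 0.05, 27 members were higher and 0 lower. The share of all genes at that unadjusted p was not counted, here or in the comparisons below. The members' median difference was 1.03, against -0.02 over all genes, 0.23 over 197 other numbered ZNF genes of chromosome 19 (5 called higher) and 0.13 over 226 ZNF genes of other chromosomes (11 called higher and 1 lower). By adjusted p alone, 24 members were higher (10.4% of all genes). Both BJEL arrays were above both BJ arrays in 27 members (29.2% of all genes), and above all 4 other arrays in the same number (9.96% of all genes).

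**Figure D2:**
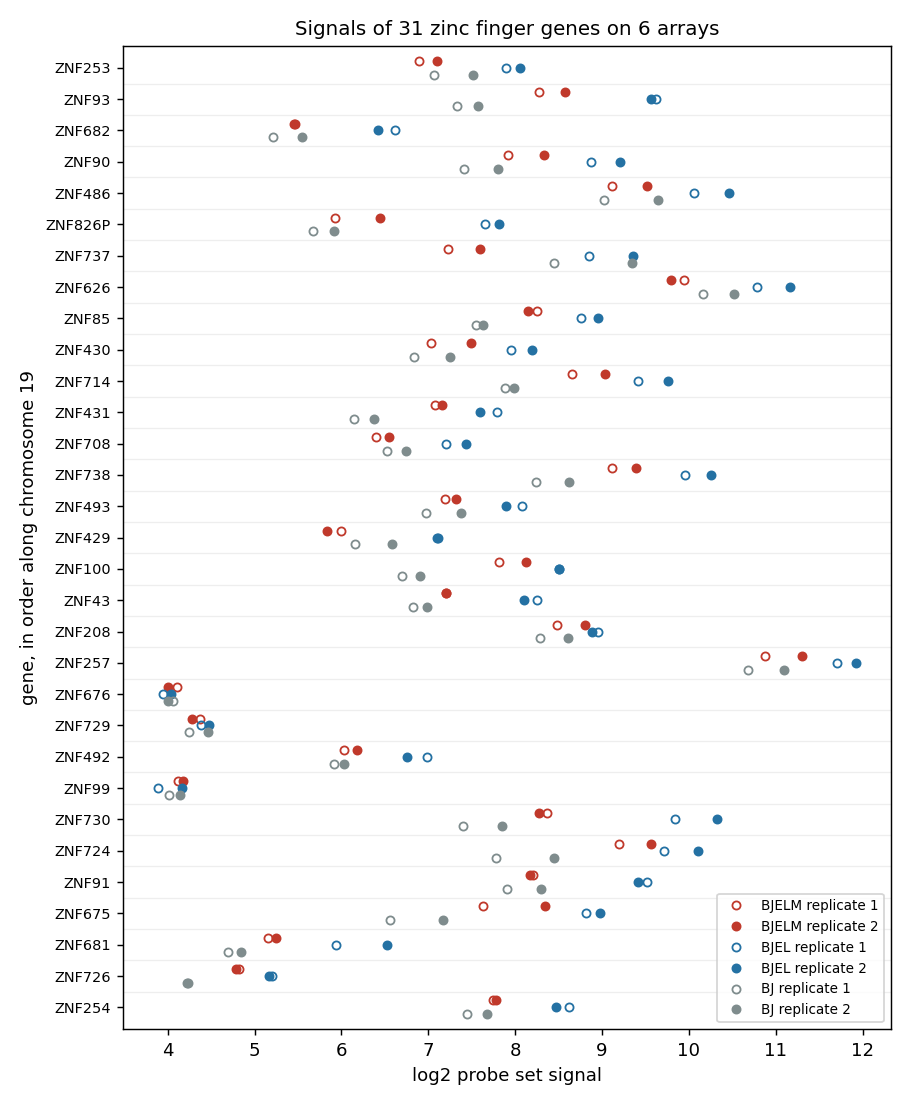
Log2 probe set signal (horizontal axis) of the 31 members on the 6 arrays, in order along chromosome 19. Open and filled points are replicates 1 and 2. The BJEL points lie to the right of all others in 27 members, and ZNF676, ZNF729 and ZNF99 stay under 5 on every array.

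ZNF730 gave 8.37 and 8.28 on the BJELM arrays, 9.84 and 10.32 on the BJEL arrays, and 7.40 and 7.85 on the BJ arrays. Its 3 groups did not overlap, with BJEL highest and BJ lowest. BJEL was 5.48-fold above BJ (log2 difference 2.45 ± 0.21 SE, limma adjusted p = 0.0014), the largest difference of the cluster.

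ZNF93, the L1 repressor, gave 8.27 and 8.58 in BJELM, 9.62 and 9.56 in BJEL, and 7.33 and 7.57 in BJ. Again the groups were apart, with BJELM in the middle. BJEL exceeded BJ 4.42-fold (2.14 ± 0.14, limma adjusted p = 0.000734). ZNF675, the TRAF6 inhibitor, gave 7.63 and 8.34 in BJELM, 8.82 and 8.98 in BJEL, and 6.56 and 7.17 in BJ. Its replicates lay further apart than those of ZNF93, yet the groups did not overlap (BJEL against BJ 2.04 ± 0.28, 4.10-fold, limma adjusted p = 0.00596).

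The pseudogene ZNF826P gave 5.93 and 6.45 in BJELM, 7.65 and 7.81 in BJEL, and 5.67 and 5.92 in BJ. BJEL stood 1.94 above BJ (± 0.19, limma adjusted p = 0.00201), while the lower BJELM array lay next to the higher BJ array. ZNF724 gave 9.20 and 9.56 in BJELM, 9.71 and 10.11 in BJEL, and 7.78 and 8.45 in BJ. Both derived lines were above BJ in this gene, and BJEL led by 1.80 ± 0.26 (limma adjusted p = 0.0066). ZNF100 gave 7.81 and 8.12 in BJELM, 8.5 and 8.51 in BJEL, and 6.70 and 6.91 in BJ, a 3.25-fold difference between BJEL and BJ (1.70 ± 0.13, limma adjusted p = 0.00118). As in ZNF724, the BJELM arrays were nearer to BJEL than to BJ.

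ZNF738 gave 9.11 and 9.39 in BJELM, 9.96 and 10.25 in BJEL, and 8.24 and 8.62 in BJ (BJEL against BJ 1.68). ZNF714 gave 8.66 and 9.04 in BJELM, 9.41 and 9.76 in BJEL, and 7.88 and 7.99 in BJ (1.65). ZNF431, whose promoter is the one most like that of ZNF714, gave 7.08 and 7.16 in BJELM, 7.79 and 7.60 in BJEL, and 6.15 and 6.38 in BJ (1.43). In all 3 the order was BJEL, BJELM, BJ with no overlap. ZNF90 gave 7.92 and 8.33 in BJELM, 8.87 and 9.21 in BJEL, and 7.41 and 7.80 in BJ (1.44). ZNF85 gave 8.25 and 8.15 in BJELM, 8.76 and 8.95 in BJEL, and 7.55 and 7.63 in BJ (1.26). ZNF681 gave 5.15 and 5.25 in BJELM, 5.94 and 6.52 in BJEL, and 4.69 and 4.84 in BJ (1.47). These too kept that order without overlap, ZNF681 near the bottom of the array's range.

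ZNF91, the SVA repressor, gave 8.21 and 8.17 in BJELM, 9.52 and 9.41 in BJEL, and 7.91 and 8.30 in BJ. Here BJELM fell within the spread of the BJ arrays, and BJEL alone stood apart (BJEL against BJ 1.36 ± 0.14, 2.56-fold, limma adjusted p = 0.00243). ZNF43 gave 7.21 and 7.20 in BJELM, 8.25 and 8.10 in BJEL, and 6.83 and 6.98 in BJ (1.27). ZNF682 gave 5.47 and 5.45 in BJELM, 6.62 and 6.42 in BJEL, and 5.21 and 5.55 in BJ (1.14). ZNF430 gave 7.03 and 7.49 in BJELM, 7.95 and 8.20 in BJEL, and 6.84 and 7.25 in BJ (1.03). The last 2 are the calls that rest on single arrays: without BJ replicate 1, ZNF682 was at 0.97 and ZNF430 at 0.83, and ZNF430 also lost its call without BJEL replicate 1 (limma adjusted p = 0.0691) or BJEL replicate 2 (0.0988). The other 14 calls held with each array left out in turn. Without BJ replicate 2, ZNF486 (1.24), ZNF493 (1.01), ZNF257 (1.13) and ZNF254 (1.09) were called as well, and without BJEL replicate 2 ZNF492 (1.02) and ZNF254 (1.05).

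Of the 15 members not called in BJEL, 8 passed the adjusted p below 2-fold, the nearest being ZNF254 at 0.98 and ZNF726 at 0.96. The smallest differences were those of ZNF676 (-0.04) and ZNF99 (-0.05), which like ZNF729 gave signals under 5 on all arrays. ZNF737 also lay at only 0.20, with a wide gap between its BJ arrays (8.45 and 9.35), and its sign turned without BJ replicate 1 (-0.25) or BJEL replicate 2 (-0.05). Spearman's rho between a gene's place along the window and its difference was 0.02, a description over 31 genes that share the same arrays. Members with 2 octamers had a median difference of 1.26 and those with 1 of 0.96, likewise a description.

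Among members with several probe sets, the choice mattered most for ZNF257. Its chosen probe set gave 10.88 and 11.30 in BJELM, 11.71 and 11.92 in BJEL, and 10.68 and 11.09 in BJ (0.93, not called). Its other one gave 5.24 and 5.66 in BJELM, 7.32 and 7.61 in BJEL, and 4.88 and 5.14 in BJ, a difference of 2.45 (limma adjusted p over all probe sets = 0.00481). With the mean of both, ZNF257 was called higher in BJEL than in BJ (1.69) and lower in BJELM than in BJEL (-1.37). Second probe sets of ZNF493 (0.53), ZNF626 (0.45) and ZNF208 (0.27 and 0.46) gave no difference of 2-fold between BJEL and BJ, nor did the probe sets naming 8 window genes (0.32) or ZNF98, ZNF492 and ZNF85 (0.48). Since these genes are near copies, a probe set may read more than 1 of them.

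Replicate 2 was above replicate 1 in 30 of 31 members in BJ, by a median of 0.32, against 41.7% of all genes. In BJELM and BJEL it was above in 21 members each, by medians of 0.15 and 0.16, against 42.1% and 48.3% of all genes. The part of this gap in the differences was not tested. The mean over the 31 members was 7.25 and 7.42 on the BJELM arrays, 8.09 and 8.23 on the BJEL arrays, and 6.88 and 7.20 on the BJ arrays, so that no BJEL array came within the range of the others.

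**Figure D3:**
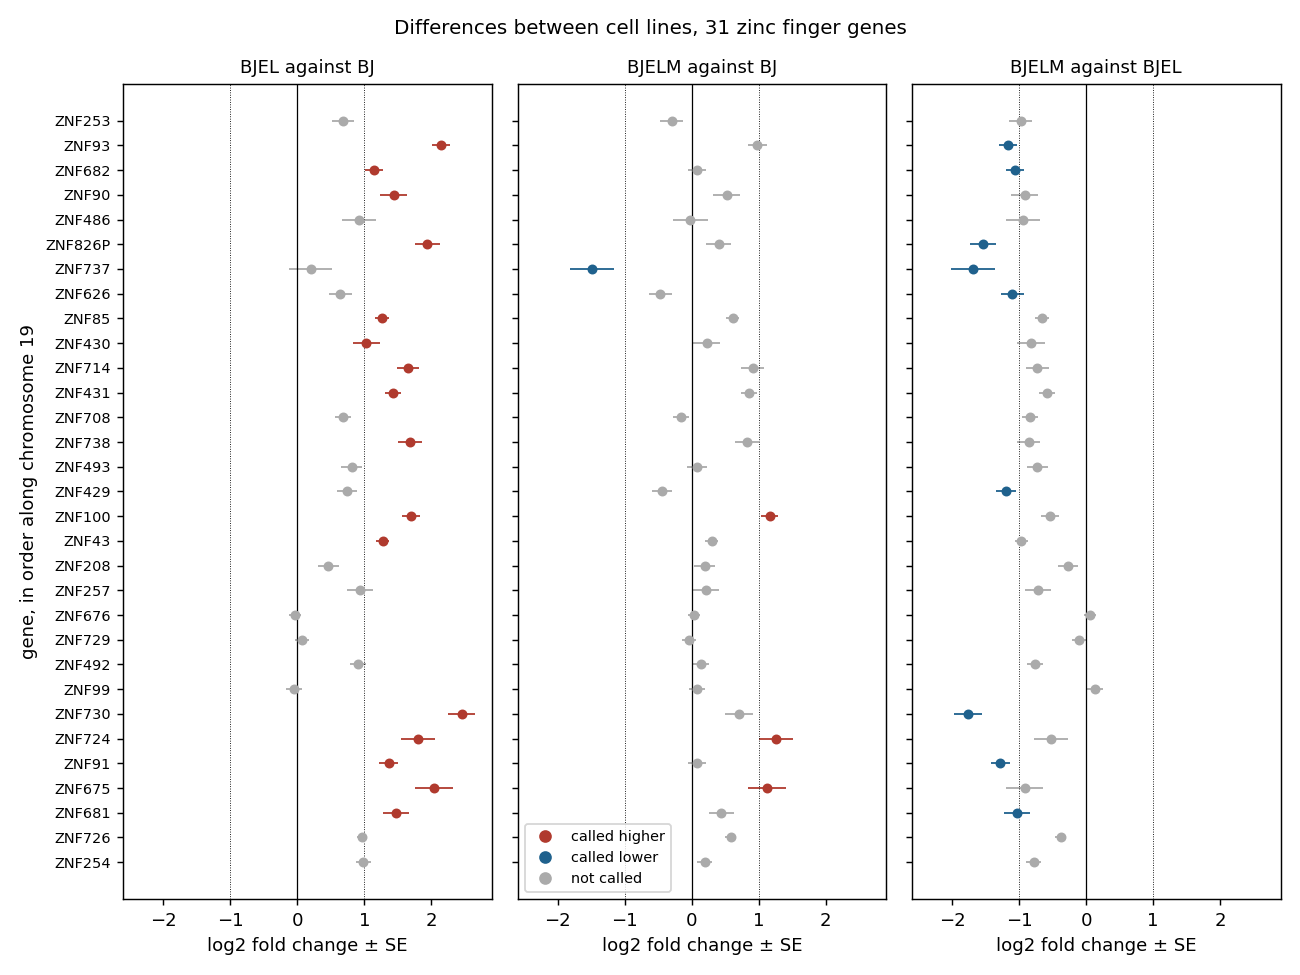
Log2 fold change of each member in the 3 comparisons, with its standard error from the limma fit. Dotted lines mark 2-fold. Red points (called higher) number 16, 3 and 0 from left to right, and blue points (called lower) 0, 1 and 9.

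BJELM cells, set against BJ cells, had 3 members called higher and 1 lower (4.09% and 4.7% of all genes). At an unadjusted p under 0.05, 12 were higher and 3 lower, and 24 of the 31 differences were above 0 (52.1% of all genes). The median was 0.21, against 0.01 over all genes. The 3 higher genes were ZNF724 (1.26 ± 0.26, 2.40-fold, limma adjusted p = 0.0134), ZNF100 (1.16 ± 0.13, limma adjusted p = 0.00173) and ZNF675 (1.12 ± 0.28, limma adjusted p = 0.0293). ZNF100 kept its call with each array left out, whereas ZNF724 fell to 0.93 and ZNF675 to 0.81 without BJ replicate 1. ZNF724 also lost its call without BJELM replicate 2 (limma adjusted p = 0.0603), and ZNF675 without that array (0.0967) or either BJEL array (0.0533 each). Nearest below the threshold were ZNF93 at 0.98 and ZNF714 at 0.91, and both were called without BJELM replicate 1 (1.13 and 1.11). Without BJ replicate 2, ZNF93 (1.10) and ZNF738 (1.01) were called, and the members' median was 0.37. The median was 0.07 without BJ replicate 1, 0.36 without BJELM replicate 1 and 0.1 without BJELM replicate 2.

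The gene called lower was ZNF737, with 7.23 and 7.60 on the BJELM arrays, 8.85 and 9.36 on the BJEL arrays, and 8.45 and 9.35 on the BJ arrays. Both BJELM arrays were below all 4 others, which overlapped each other. BJELM was 2.80-fold below BJ (-1.49 ± 0.32, limma adjusted p = 0.0174), and the call was lost without BJELM replicate 1 (-1.30, limma adjusted p = 0.0719). ZNF626 (-0.47) and ZNF429 (-0.45) came next and were not called, and the smallest differences were those of ZNF486 (-0.02) and ZNF676 (0.03).

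BJELM cells, set against BJEL cells, had 9 members called lower and none higher (1.76% of all genes lower; at an unadjusted p under 0.05, 26 lower and 0 higher), with a median of -0.84 against 0.03 over all genes. By adjusted p alone 21 were lower (6.28% of all genes). Both BJELM arrays lay below both BJEL arrays in 29 members (24% of all genes). This comparison and the first share the BJEL arrays, so a high BJEL signal moves both. Of all genes, 0.478% were called higher in BJEL than in BJ and lower in BJELM than in BJEL, and of the members 6 were: ZNF93, ZNF682, ZNF826P, ZNF730, ZNF91 and ZNF681.

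ZNF730 had the largest difference (-1.76 ± 0.21, 3.38-fold lower, limma adjusted p = 0.00686), followed by ZNF737 (-1.69 ± 0.32), ZNF826P (-1.54 ± 0.19) and ZNF91 (-1.28 ± 0.14). ZNF429 gave 6.00 and 5.84 in BJELM, 7.10 and 7.11 in BJEL, and 6.16 and 6.58 in BJ, so that BJELM was 1.19 below BJEL and under both BJ arrays. ZNF626 gave 9.95 and 9.79 in BJELM, 10.78 and 11.17 in BJEL, and 10.16 and 10.52 in BJ, and was lower by 1.10, again with BJELM the lowest line. ZNF93 (-1.17), ZNF682 (-1.06) and ZNF681 (-1.03) complete the 9.

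Only ZNF826P, ZNF730 and ZNF91 kept this call with each array left out. Without BJEL replicate 1 the count was 5, since ZNF93 (limma adjusted p = 0.0514), ZNF682 (0.0601), ZNF737 (0.0764) and ZNF429 (0.0552) were lost. ZNF737 was also lost without any 1 of the other BJEL and BJELM arrays (up to 0.12), ZNF626 without BJEL replicate 2 (-0.91) or BJELM replicate 2 (limma adjusted p = 0.0669), and ZNF681 without BJEL replicate 2 (-0.74), BJELM replicate 1 (0.0734) or BJELM replicate 2 (0.0743). Without BJEL replicate 2, ZNF43 was called (-1.04). The nearest not called were ZNF253 (-0.98) and ZNF43 (-0.97), and the smallest differences were those of ZNF676 (0.06) and ZNF729 (-0.10).

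**Figure D4:**
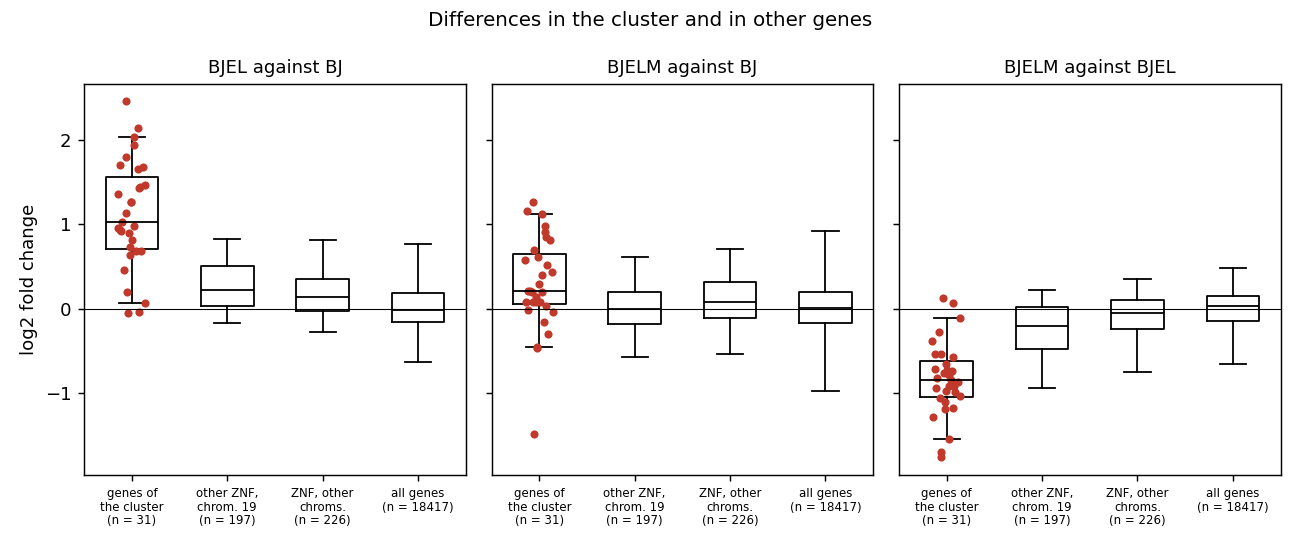
Log2 fold change in the 3 comparisons for the 31 members (red points), other numbered ZNF genes of chromosome 19, ZNF genes of other chromosomes and all genes. Boxes run from the lower to the upper quartile with the median as a line, and whiskers run from the 5th to the 95th percentile. The members' medians are 1.03, 0.21 and -0.84 from left to right, and those of all genes -0.02, 0.01 and 0.03.

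Outside the window, the next measured ZNF genes in order before ZNF253 were ZNF101, ZNF14 and ZNF506, and those after ZNF254 were ZNF536, ZNF507 and ZNF302. They were taken by order alone, and their distance from the window was not worked out. None was called in BJEL against BJ, where their differences ran from -0.11 (ZNF536) to 0.55 (ZNF101). ZNF253 itself, the first gene inside, was at 0.68 and ZNF254, the last, at 0.98. ZNF506 gave 7.35 and 7.48 in BJELM, 8.72 and 8.84 in BJEL, and 8.49 and 8.59 in BJ, so it was called lower in BJELM than in BJ (-1.13) and BJEL (-1.37) with a difference of 0.24 between BJEL and BJ. Of 3 other genes in the window, RPSA2 was called higher in BJEL than in BJ (1.05), and CCNYL6 (-0.05) and GOLGA2P9 (-0.12) were not.

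The 3 lists of genes through which KRAB proteins act, or that keep chromatin silent or act on DNA methylation, were read beside the cluster. Of all genes, 2.89% were called higher in BJEL and 4.09% in BJELM than in BJ. Of 21 KAP1 corepressor and NuRD genes none was called by limma in BJEL against BJ (7 higher and 1 lower at an unadjusted p under 0.05), and only KDM1A, a histone demethylase, was called in BJELM against BJ (1.23), where 12 were higher and 2 lower at the unadjusted p. TRIM28 gave 11.15 and 11.03 in BJELM, 10.99 and 10.97 in BJEL, and 10.95 and 10.98 in BJ, with the BJEL and BJ arrays overlapping. SETDB1 was higher than in BJ by 0.22 in BJEL (limma adjusted p = 0.191) and by 0.49 in BJELM (limma adjusted p = 0.0126), below 2-fold.

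Of 15 genes of the HUSH complex and heterochromatin, the H3 lysine 9 methyltransferases SUV39H1 and SUV39H2 were called higher in BJEL (1.21 and 1.32) and in BJELM (1.08 and 1.51) than in BJ. At the unadjusted p, 6 of the 15 were higher in BJEL and 8 in BJELM than in BJ, and none lower. The list for DNA methylation had 12 genes measured, and it mixes genes that keep methylation up with TET enzymes that remove it and with methyl-CpG readers. Of these, the remodeller HELLS (1.49) and its activator CDCA7 (2.01) were called higher in BJEL than in BJ. Both (1.5 and 2.28), with CDCA7L (1.15), were called higher in BJELM than in BJ. At the unadjusted p, 9 of the 12 were higher in BJEL and 8 in BJELM than in BJ, and none lower. The 9 include TET2 and TET3, which remove methylation, and the readers MBD1 and ZBTB33. No share of all genes at that unadjusted p was counted, so the list counts at it have no background. None of the 3 lists had a gene called lower in any comparison, or called at all in BJELM against BJEL, where at an unadjusted p under 0.05 the lists had 4 higher and 1 lower, 1 and 1, and 2 and 1 in the order given.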

How the data were processed

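The deposited log2 signals were made by the authors from all 6 arrays with RMA (Affymetrix Expression Console 1.3.1, default settings, per the submitters' processing notes), which evens out the arrays' distributions, so that a shift shared by all genes would be removed. Array medians over genes were 7.18 to 7.27. Arrays carry no depth; precision is limited by their number.

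Of 33297 probe sets, 19460 had 1 symbol, 1754 several, and 12083 are not listed in the annotation table. Gene order came from RefSeq, where 18389 of 18417 genes matched. The array annotation's build is not given in the sources used here.

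The lines were compared with limma 3.58.1 (R 4.3.3) in 1 fit of all 6 arrays with a mean per line (3 residual degrees of freedom, 3.13 from the prior), two-sided, with Benjamini-Hochberg adjustment over 18417 genes, and the fit was tested on simulated data. A t-test of unequal variances (Welch), in place of the study's modified t-test, was an alternative, with other scalings, filters and each array left out. Promoters were aligned with Biopython 1.88. Protein sequences were planned and not used here.

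The members, the gene lists and the octamer were chosen with earlier results of these data known. Array values are given for called members, other members by range, with the 2 largest and 2 smallest differences not called, and for list genes the called ones.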

Additional observations from a re-analysis of the deposited data

How the results depend on the processing

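The counts and medians of the cluster were recomputed under each alternative. With the replicate number as a block the counts were as reported (16 higher in BJEL against BJ, 3 higher and 1 lower in BJELM against BJ, 9 lower in BJELM against BJEL). Deviations of arrays with the same number correlated at 0.45 to 0.55, a hint from the data, since 2 numbers do not establish pairs. With 1 array left out, the ranges were 14 to 20 higher (median 0.95 to 1.24) for BJEL against BJ, 1 to 5 higher and 0 to 1 lower (0.07 to 0.37) for BJELM against BJ, and 5 to 9 lower (-0.97 to -0.71) for BJELM against BJEL. With genes below the median signal (7.26) left out, the BJEL against BJ median was 1.27 and BJELM against BJEL had 5 lower, as fewer members entered. With no fold minimum, 9 were higher in BJELM against BJ and 21 lower in BJELM against BJEL. The Welch t-test stood in for the study's modified t-test, whose own formula was not applied. At an unadjusted p under 0.05 it gave 11 higher in BJEL against BJ, where ZNF430, ZNF724, ZNF91, ZNF675 and ZNF681 lost their calls. It gave 1 higher and 0 lower in BJELM against BJ and 3 lower in BJELM against BJEL. After Benjamini-Hochberg adjustment it gave 0 in every comparison, the BJEL against BJ count of 16 included, and the cause was not tested. The share of all genes called by the Welch test was not counted, so its counts have no background. Signs turned for 9 of the 31 members, none of these differences called. With 1 array left out, the ranges that crossed 0 were, in BJEL against BJ, ZNF737 (-0.25 to 0.66), ZNF729 (-0.04 to 0.17), ZNF99 (-0.19 to 0.09) and ZNF676 (-0.08 to 0.01), in BJELM against BJ, ZNF486 (-0.34 to 0.3), ZNF493 (-0.12 to 0.28), ZNF682 (-0.09 to 0.25), ZNF91 (-0.11 to 0.28), ZNF430 (-0.01 to 0.45), ZNF729 (-0.14 to 0.07) and ZNF676 (-0.03 to 0.09), and in BJELM against BJEL, ZNF99 (-0.01 to 0.27). In BJELM against BJ, median centring also turned ZNF486 (0.02) and ZNF729 (0.01), and the mean of all probe sets turned ZNF493 (-0.09).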

Other observations

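Numbered ZNF genes outside the window were set apart by the octamer TCCAATCA after the values were seen, so the following are descriptions. Only measured genes with a listed promoter entered, 176 of 226 on other chromosomes and 170 of 197 on chromosome 19. Called genes without one are therefore left out of these counts. Of all genes, 2.89% were called higher in BJEL than in BJ. On chromosomes other than 19, 15 measured genes had it in a promoter, and 6 of these (8 at an unadjusted p under 0.05, limma) were called higher in BJEL than in BJ: ZNF138 (1.58), ZNF680 (1.43), ZNF107 (1.38), ZNF273 (1.3) and ZNF92 (1.01) of chromosome 7, and ZNF267 (1.10) of chromosome 16. Of 161 genes there without it, 4 (53 at the unadjusted p) were called higher, and the median difference was 0.33 with the octamer and 0.16 without it. On chromosome 19 outside the window, none of 22 genes with the octamer (5 at an unadjusted p under 0.05, limma) and 3 of 148 without it (56 at the unadjusted p) were called higher, and the median difference was 0.22 in both. The split between chromosome 19 and the others was not tested, and ZNF716 (-0.08) and ZNF479 (-0.01) of chromosome 7 had the octamer and were not called.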
